A study of Mus musculus with 12 samples.

Results

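Bone marrow-derived macrophages of 2 mouse genotypes, labelled Itga9-Lyz2-cHet and Itga9-Lyz2-cKO (called cHet and cKO here), were compared after 2 hours with Pg. The comparison set the 3 cKO against the 3 cHet Pg libraries, 6 of the 12 libraries of the series. It covered 13800 of the 54532 genes in the count table, those that passed a filter on low counts. The filter and the estimate of the spread drew on all 12 libraries. The cells came from femurs of male mice 8 weeks old and were grown with M-CSF at 50 ng/mL. M-CSF drives bone marrow precursors to become macrophages. Pg was added at a multiplicity of infection written as 1:20, and 3 control libraries of each genotype had no Pg. The genotype names carry both Itga9 and Lyz2 in both groups, so the cHet libraries are not from mice free of the modified alleles. Nothing in the labels ties the 3 libraries per group to different animals or dishes, so p-values rest on a spread that may be only technical.

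Integrins are paired receptors of an alpha and a beta chain that hold cells to the extracellular matrix and signal from it. Itga9 encodes the alpha9 chain, which pairs with the beta1 chain (Itgb1) and binds tenascin-C, osteopontin and VCAM-1, among others. Lyz2 encodes lysozyme M, an abundant enzyme of macrophages and neutrophils whose locus is widely used to drive Cre recombinase in myeloid cells. Pg is the usual abbreviation of Porphyromonas gingivalis, a Gram-negative bacterium of the gum pocket whose surface molecules engage Toll-like receptors on macrophages.

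Itga9 was lower in every cKO Pg library than in every cHet Pg library, but the difference did not pass the test across all genes. Its level in CPM (counts scaled to library size with edgeR) was 19.4, 34.0 and 33.4 in the cHet Pg libraries 1 to 3 and 13.6, 11.6 and 7.84 in the cKO Pg libraries. The groups did not overlap, and the cKO libraries kept reads of the gene. The log2 difference, cKO minus cHet, was -1.39 with a standard error of 0.36 (adjusted p = 0.125), and DESeq2 gave an adjusted p of 0.0125 for the same difference. The control libraries differed by -1.53 (adjusted p = 0.0497). Reads were counted over the whole of Itga9 (9:118606690-118901003, build mm10), so single exons cannot be read apart, and the labels do not say which part of the gene was changed. Itgb1, its partner chain, was at 652 to 662 CPM in cHet and 602 to 670 CPM in cKO, a log2 difference of -0.02 (adjusted p = 0.942) that overlapped between the groups and turned to 0.03 without cKO Pg 1.

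Lyz2, the locus named in both genotype labels, fell to 0.52 of its cHet level. It was at 22004, 18621 and 17904 CPM in cHet and at 9457, 9992 and 10978 CPM in cKO, with no overlap, and the log2 difference was -0.94 (standard error 0.09, adjusted p = 1.23e-05). In controls the same difference was -0.99 (adjusted p = 6.39e-06). Lyz1, the neighbouring gene for the related lysozyme P (10:117287797-117292868), went the other way, with 12.9, 20.8 and 16.3 CPM in cHet and 149, 149 and 86.0 CPM in cKO. That log2 difference of 2.94 had an adjusted p of 0.0108, which became 0.0549 without cHet Pg 1 and 0.0623 without cHet Pg 3. The 2 lysozyme genes are similar in sequence, and how reads that fit both were counted is not given in the sources used here, so the Lyz1 and Lyz2 values are uncertain to that extent.

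Total counts of the Pg libraries ran from 15361576 to 16245929. Across tested genes the first principal component of the 6 libraries, with 45.3% of the variance, separated the genotypes. The second, with 19.6%, set cHet Pg 1 (19.7) and cKO Pg 3 (18.1) apart from the other 4 libraries (-14.6 to -5.4), so these libraries stood apart in both genotypes. Itgax, the alpha chain known as CD11c, moved with them. It was at 59.3 CPM in cHet Pg 1 and 48.0 CPM in cKO Pg 3, against 103 to 137 CPM in the other Pg libraries, and its genotype difference of -0.27 (adjusted p = 0.918) became 0.03 without cKO Pg 3.

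Under Pg, 255 of 13800 genes differed between genotypes at an adjusted p below 0.05 (1.85% of the genes tested). Of these, 90 were higher in cKO (0.652% of tested genes) and 165 were lower (1.2%), and the median log2 difference of all tested genes was 8.6e-05. All 255 had cKO and cHet libraries that did not overlap, against 17.6% of all tested genes with no overlap (8.51% with cKO lower and 9.04% with cKO higher). At least 2-fold lower were 96 genes, of which 66 were under 1 CPM in every cKO Pg library, and 26 genes were at least 2-fold higher. Among the 121 called genes at 10 CPM or more in both genotypes, 59 were higher and 62 lower, with a median absolute log2 difference of 0.45. Leaving out cKO Pg 2 gave 153 called genes and leaving out cHet Pg 2 gave 168. The defining macrophage markers carried the cell type label in both genotypes: 11 genes summed to 17528 to 19310 CPM in cHet and 18240 to 19868 CPM in cKO, and 0 of the 11 passed. Of the 20 tested macrophage identity genes, 1 passed, Lyz2.

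**Figure D1:**
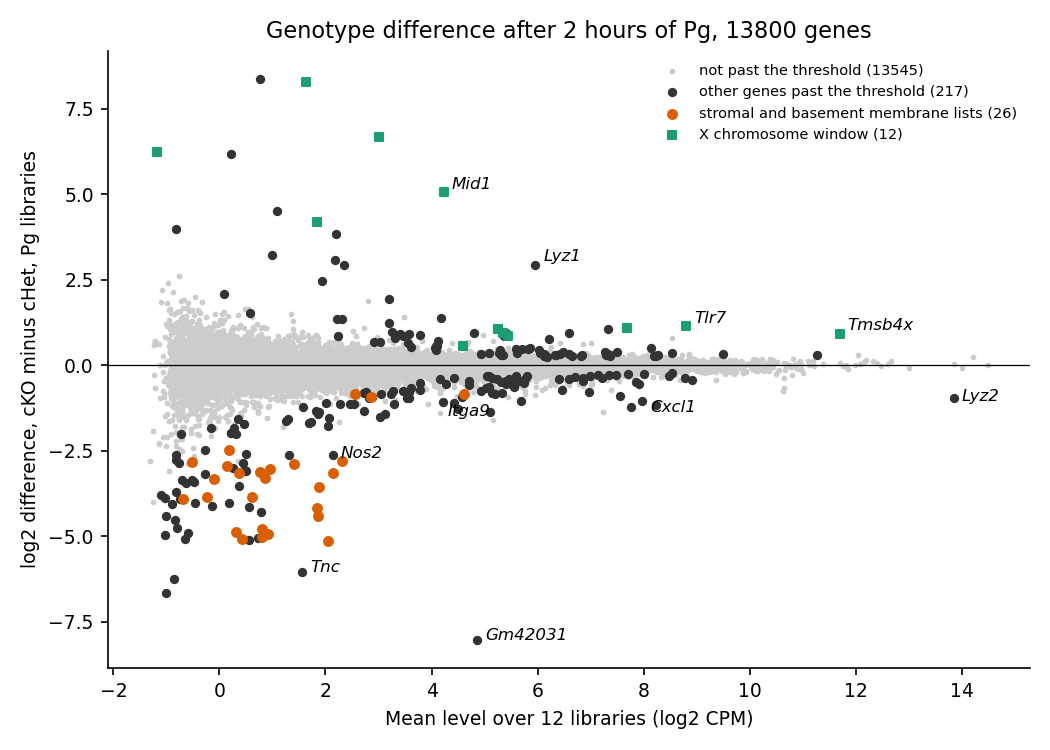
Log2 difference between cKO and cHet Pg libraries (vertical axis) against the mean level over 12 libraries in log2 CPM (horizontal axis) for the 13800 tested genes. Matrix genes lie low on the left, the 12 genes of a window on the X chromosome lie above zero over the whole range of levels, and Lyz2 stands alone below zero at the far right.

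Genes of fibroblasts and other stromal cells were lower in cKO. Of 21 tested stromal matrix genes, 19 fell and none rose, where 1.2% of all tested genes were lower and 0.652% higher. The list's median log2 difference was -3.16, against 8.6e-05 for all genes. The list held 27 genes, of which 21 passed the low-count filter. Some, such as Col1a2 and Bgn, were under 1 CPM in every cKO library and passed through the cHet libraries. The count and the median thus lean to genes that were high in cHet. Col1a2, a chain of type I collagen, was at 6.89, 8.59 and 6.16 CPM in the cHet Pg libraries and at 0.538, 0.142 and 0.482 CPM in the cKO Pg libraries. The groups lay far apart, and the log2 difference was -4.18 (standard error 0.31, adjusted p = 2.6e-07). Sparc, a collagen-binding matrix glycoprotein, was at 8.85, 9.01 and 7.70 CPM in cHet and 0.807, 1.07 and 0.963 CPM in cKO. Bgn, the proteoglycan biglycan, differed by -4.41 and Col1a1, the other type I collagen chain, by -2.89. Ctgf, a secreted growth factor-like matrix protein, was at 10.2, 8.45 and 8.91 CPM in cHet and 0.202, 0.285 and 0.275 CPM in cKO, a log2 difference of -5.14 (adjusted p = 2.42e-09). Its relative Cyr61, the collagen chaperone Serpinh1 and Col6a3, a chain of the microfibrillar type VI collagen, fell as well. Their log2 differences were -5.03 for Cyr61, -4.78 for Serpinh1 and -4.94 for Col6a3.

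Basement membrane genes followed in 7 of 13 tested members, all lower, where 1.2% of all tested genes were lower. As in the stromal list, rare genes could pass the low-count filter through the cHet libraries, so this count can lean to falls too. With at least 50 counts in 3 libraries, 4 of 8 tested members were lower. Col4a1, a chain of the network-forming type IV collagen, was at 8.15, 10.1 and 8.98 CPM in cHet and 0.807, 1.21 and 1.86 CPM in cKO (log2 difference -2.81, adjusted p = 1.35e-06). Hspg2, which encodes perlecan, differed by -3.58, and Nid1, the linker nidogen-1, by -5.10. The laminin chains Lama4 and Lamb1 differed by -3.91 and -3.86, while Col4a2 differed by only -0.93. Of 10 tested endothelial markers, Plvap and Emcn were called lower. Plvap had an adjusted p of 0.00894, but of 0.117 when cHet Pg 1 and cKO Pg 3 were both left out. Emcn, below 1 CPM in every library, lost its call without any 1 of the 6 Pg libraries (adjusted p 0.0718 to 0.208).

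These genes were rare transcripts in both genotypes. The whole stromal list summed to 85.9 to 97.3 CPM in the cHet Pg libraries and to 13.3 to 21.6 CPM in the cKO Pg libraries. Of the 8 defining stromal markers, summed at 21.8 to 28.8 CPM in cHet and 2.21 to 4.33 CPM in cKO, 5 were tested and 4 fell, and Lum was at 0 in all Pg libraries. In bulk RNA, fewer cells of a type and less RNA per cell cannot be told apart. The control libraries had the same gap, with 19 of the 21 genes lower in cKO and a median of -3.77. Of all tested genes, 3.02% were lower in controls. No marker of neutrophils (13 tested), monocytes (8), dendritic cells (9), T and NK cells (2), mast cells (6) or the erythroid line (6) was called by edgeR. At an unadjusted p under 0.05 these lists had 2, 0, 0, 1, 4 and 2 genes, beside 1687 of all 13800 tested genes. DESeq2 called 1 mast cell marker lower and no other, beside 226 lower and 119 higher of all 13800. Their medians were -0.38 for neutrophil markers (12 of 13 negative), -0.14 for monocyte markers (7 of 8), 0.04 for dendritic cell markers (4 of 9), -0.68 for mast cell markers (6 of 6) and -0.39 for the erythroid line (5 of 6). Ctsg, a neutrophil granule protease gene outside these lists, was lower, at 13.6, 15.8 and 17.0 CPM in cHet and 9.35, 7.11 and 7.57 CPM in cKO (-0.95, adjusted p = 0.000684). The part of these cell types in the other differences was not tested. Of 11 tested B and plasma cell genes only Ighg2b, an immunoglobulin heavy chain constant region, was called (higher, 0.351, 2.18 and 0.804 CPM in cHet, 7.19, 7.47 and 3.72 CPM in cKO, adjusted p = 0.0116); it lost the call without cHet Pg 3 (adjusted p = 0.082), cKO Pg 1 (0.0532) or cKO Pg 2 (0.0603). Ighg2c, another heavy chain constant region outside the list, was higher as well, at 0.211, 0.211 and 0.737 CPM in cHet and 4.84, 3.06 and 3.16 CPM in cKO (3.21, adjusted p = 8.38e-05), and kept its call without any single Pg library.

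Tenascin-C, a matrix protein that integrin alpha9beta1 binds, was among the largest losses. Tnc was at 6.39, 6.69 and 6.63 CPM in cHet and at 0.0672, 0 and 0.206 CPM in cKO, a log2 difference of -6.04 (standard error 0.52, adjusted p = 1.39e-06). Vcam1, another ligand and an adhesion molecule for leukocytes, was at 136, 164 and 156 CPM in cHet and 98.8, 93.7 and 84.7 CPM in cKO (-0.72, adjusted p = 0.00533). Those were the 2 of 11 tested ligands that passed, both lower, where 1.2% of all tested genes were lower. In controls 2 of the 11 ligands were called lower too, where 3.02% of all tested genes were lower. Like Ctgf and Col1a2 above, Tnc was under 1 CPM in every cKO Pg library. Whether its loss has the same source as that of the stromal genes was not tested. Among 19 tested integrin chains, Itgad, the alpha chain CD11d, fell from 6.11, 3.31 and 3.01 CPM to 0.672, 0.711 and 0.619 CPM (log2 difference -2.62, adjusted p = 0.000151). Itgal, the alpha chain of LFA-1, was called higher, at 210, 217 and 232 CPM in cHet and 278, 246 and 287 CPM in cKO. Its log2 difference of 0.30 (adjusted p = 0.033) lost the call without cHet Pg 1 (0.115), cHet Pg 2 (0.126), cKO Pg 1 (0.125) or cKO Pg 3 (0.109). Of 26 tested integrin signalling genes, Src and Parva passed, both lower, again beside 1.2% of all tested genes. Src, a tyrosine kinase acting below integrins, was at 47.9, 48.1 and 52.0 CPM in cHet and 29.0, 32.4 and 33.6 CPM in cKO (-0.64, adjusted p = 0.000602). Parva, an actin-binding adaptor of adhesion sites, was under 1 CPM in all 6 libraries and lost its call without cHet Pg 2 (adjusted p = 0.075), cHet Pg 3 (0.0746), cKO Pg 1 (0.109) or cKO Pg 2 (0.129).

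Few of the acute response genes to bacteria were called, as was true of all tested genes (1.85% called), so the counts below say nothing particular about these lists. In edgeR 0 of 24 tested cytokine genes passed (3 at an unadjusted p under 0.05, 1 lower by DESeq2), and so did 0 of 19 NF-kB subunits and inhibitors (5 at an unadjusted p under 0.05, 0 by DESeq2). Of all 13800 tested genes, 1687 were at an unadjusted p under 0.05 in edgeR, and DESeq2 called 345. Of 22 immediate early genes only Klf2, a flow-responsive transcription factor, passed. Il1b, which encodes interleukin-1 beta, was at 1421, 1554 and 1479 CPM in cHet and 1411, 1506 and 1657 CPM in cKO (log2 difference 0.04, adjusted p = 0.906), with overlapping groups. Tnf overlapped too, at 902, 1365 and 1519 CPM in cHet and 1507, 1273 and 901 CPM in cKO, with its lowest cHet value and its lowest cKO value in the libraries that stood apart. The anti-inflammatory cytokine gene Il10 was at 174, 175 and 177 CPM in cHet and 184, 200 and 185 CPM in cKO (0.11, adjusted p = 0.71). Klf2 differed by -0.39 (adjusted p = 0.0367) and lost its call without any 1 of the 6 Pg libraries, with adjusted p from 0.05 to 0.156.

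Of 22 tested chemokine genes, 3 were lower in cKO and none higher, where 1.2% of all tested genes were lower and 0.652% higher. Cxcl1, which draws neutrophils, was at 512, 708 and 719 CPM in the cHet Pg libraries and at 336, 337 and 261 CPM in the cKO Pg libraries. No library overlapped, and the log2 difference was -1.05 (standard error 0.13, adjusted p = 0.000709). Its control levels were also apart, at 31.1 to 36.5 CPM in cHet and 8.93 to 10.2 CPM in cKO. Cxcl2, a close relative on the same chromosome, was at 981, 1272 and 1534 CPM in cHet and 1459, 1495 and 1346 CPM in cKO, with overlapping groups (adjusted p = 0.648). Cxcl3 was at 117, 115 and 123 CPM in cHet and 83.4, 85.6 and 97.2 CPM in cKO (-0.42, adjusted p = 0.0178), and its call was lost without cHet Pg 2 (0.0545), cHet Pg 3 (0.0996), cKO Pg 1 (0.0975) or cKO Pg 2 (0.116). Ccl8, which draws monocytes and was at no more than 2.11 CPM, differed by -1.99 (adjusted p = 0.0129) and lost its call without cHet Pg 2 (0.0637), cHet Pg 3 (0.0575) or cKO Pg 2 (0.0943).

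Genes of arginine use were lower in cKO in 3 of 10 tested members of the nitric oxide, arginine and itaconate list. Over all tested genes, 1.2% were lower. Nos2 encodes the inducible nitric oxide synthase and was at 13.1, 5.07 and 10.4 CPM in cHet Pg and 1.14, 1.42 and 2.06 CPM in cKO Pg. The lowest cHet library was above the highest cKO library, and the log2 difference was -2.62 (standard error 0.31, adjusted p = 9.19e-05). In controls Nos2 was at 3.11 to 3.51 CPM in cHet and 2.86 to 3.33 CPM in cKO. Its mean was thus higher with Pg than without in cHet (9.53 against 3.27 CPM) and lower with Pg in cKO (1.54 against 3.02 CPM). The test of that difference between conditions gave an interaction of -2.50 on the log2 scale (adjusted p = 0.0116), which had an adjusted p of 0.0523 without cKO Pg 2. Slc7a2, an arginine transporter, was at 34.4, 47.2 and 49.0 CPM in cHet and 22.7, 21.5 and 16.6 CPM in cKO (-1.10, adjusted p = 0.0222). Arg1, the arginase that competes for the same substrate, was at 6.32, 8.59 and 6.56 CPM in cHet and 2.29, 2.28 and 2.82 CPM in cKO (-1.54, adjusted p = 0.0267). Slc7a2 lost its call without any 1 Pg library but cHet Pg 1 (adjusted p 0.0583 to 0.0924), and so did Arg1 (0.0643 to 0.146).

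**Figure D2:**
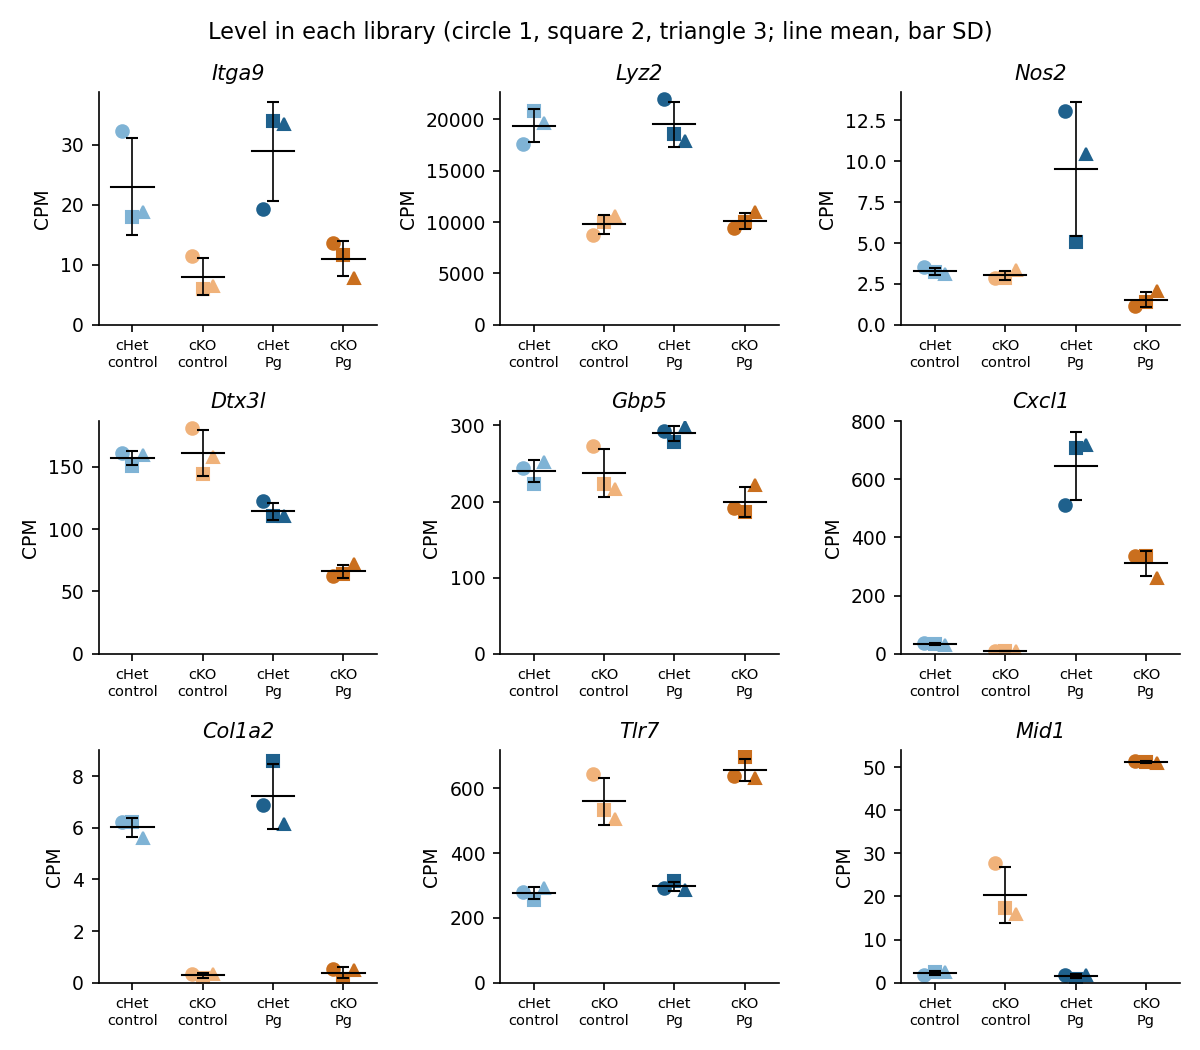
Level of 9 genes in CPM (vertical axes, starting at 0) in each of the 12 libraries, by group, with circles, squares and triangles for replicates 1, 2 and 3, a line at the group mean and a bar of 1 SD. Nos2, Dtx3l and Gbp5 do not overlap between genotypes in the Pg libraries and overlap in the controls, whereas Lyz2, Col1a2 and Tlr7 overlap in neither.

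Interferon response genes had mostly negative differences and few single calls. Of 40 tested members, 3 passed the test, all lower, where 1.2% of all tested genes were lower. A negative log2 difference was found in 38 of the 40, with a list median of -0.36 against 8.6e-05 for all genes. Other lists were one-sided too, with 12 of 13 neutrophil markers (median -0.38), 6 of 6 mast cell markers (-0.68) and 23 of 25 cell cycle genes (-0.23) negative. The control median of the interferon list was 0.16, and its genes summed to 3025 to 3777 CPM in cHet Pg and 2705 to 2852 CPM in cKO Pg. Gbp5, a guanylate-binding protein of antibacterial defence, was at 293, 278 and 298 CPM in cHet and 191, 186 and 222 CPM in cKO (-0.54, adjusted p = 0.00203), and its interaction of -0.52 did not pass (adjusted p = 0.066). Irgm2, an immunity-related GTPase, was at 23.4, 24.4 and 27.5 CPM in cHet and 13.7, 13.9 and 14.9 CPM in cKO (-0.82, adjusted p = 0.0108). Its call was lost without cHet Pg 3 (0.0556), cKO Pg 1 (0.0655) or cKO Pg 2 (0.0697). Mx2, an antiviral dynamin-like GTPase, was at 20.9, 25.1 and 20.9 CPM in cHet and 8.34, 7.97 and 9.77 CPM in cKO (-1.36, adjusted p = 0.0282). Leaving out any single Pg library ended that call (0.0768 to 0.136). Mx1, Stat2 and Tap1, which did not pass, had log2 differences of -1.38, -0.58 and -0.50 (adjusted p 0.133, 0.0659 and 0.0782). Of the list, DESeq2 called 9 members lower, where it called 226 of all 13800 tested genes lower. Of the 40, edgeR called 5 without cKO Pg 3 and 1 without cHet Pg 3, cKO Pg 1 or cKO Pg 2. With cHet Pg 1 and cKO Pg 3 both left out, a setting chosen after seeing the data, the interferon median was -0.62 and 39 of 40 members were negative. Medians of the other one-sided lists moved with left-out libraries too. Without cHet Pg 1 alone, the interferon, neutrophil, mast cell and cell cycle medians were -0.51, -0.54, -1.01 and -0.39. Without cHet Pg 2 they were -0.32, -0.28, -0.53 and -0.09, and without cHet Pg 3 they were -0.35, -0.21, -0.51 and -0.13.

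Promoters of Irgm2 and Gbp5 were read for the core of the interferon-stimulated response element, because that element is the textbook route from interferon signalling to these genes. The motif searched was a direct repeat of the 4 letters GAAA with 2 bases of any kind between the copies, on both strands, in the 250 bases before and 50 bases after each RefSeq start (GRCm38.p6). A match occurred in 3.44% of 32851 promoters and in 4.01% of the 9847 tested genes that had an entry. Of genes lower under Pg, 8 of 115 with an entry matched (6.96%), and of genes higher under Pg, 3 of 56 did (5.36%). A second motif, the STAT palindrome (TTC and GAA with 3 bases of any kind between them), was also searched and matched in 9 of the 115 lower genes (7.83%), 4 of the 56 higher genes (7.14%) and 8.18% of the tested genes with an entry. Mx2 had no entry. Irgm2 and Gbp5 each had 1 match, shown in capitals, which begins 64 bases before the start in Irgm2 and 165 bases before it in Gbp5, where the letters lie on the other strand. The sequences run 5′ to 3′ on the plus strand, at 11:58214727-58215026 and 3:142496684-142496983.
Irgm2: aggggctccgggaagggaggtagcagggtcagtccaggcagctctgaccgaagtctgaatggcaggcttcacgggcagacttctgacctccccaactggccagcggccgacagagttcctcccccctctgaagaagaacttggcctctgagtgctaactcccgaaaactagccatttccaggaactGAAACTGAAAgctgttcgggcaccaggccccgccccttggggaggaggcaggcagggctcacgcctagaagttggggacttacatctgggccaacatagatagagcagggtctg
Gbp5: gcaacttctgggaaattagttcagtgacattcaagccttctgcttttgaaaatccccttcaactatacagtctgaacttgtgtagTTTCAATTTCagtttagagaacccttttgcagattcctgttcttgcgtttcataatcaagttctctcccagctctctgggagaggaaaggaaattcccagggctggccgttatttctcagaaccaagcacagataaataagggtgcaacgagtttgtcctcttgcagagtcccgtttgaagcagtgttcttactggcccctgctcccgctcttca

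Antigen presentation genes had 0 calls in edgeR in either class. At an unadjusted p under 0.05 there were 7 of 13 class I and 6 of 11 class II genes, beside 1687 of all 13800 tested genes. DESeq2 called 1 class I gene lower and 4 class II genes higher, beside 226 lower and 119 higher of all 13800. All 13 tested class I presentation genes had negative log2 differences, with a median of -0.18. Among 11 tested class II genes the median was 0.40, and they summed to 503 to 769 CPM in cHet and 874 to 1161 CPM in cKO. Cd74, the invariant chain of class II, was at 225, 344 and 372 CPM in cHet and 610, 579 and 451 CPM in cKO (0.80, adjusted p = 0.0747). H2-Ab1, a class II beta chain, was at 77.7, 110 and 116 CPM in cHet and 178, 159 and 131 CPM in cKO (0.62, adjusted p = 0.0541). The lowest value of each genotype for both genes was in a library that stood apart, cHet Pg 1 or cKO Pg 3. With cHet Pg 1, 2 or 3 left out, the class II median was 0.29, 0.43 and 0.48, respectively. In these fits 2, 0 and 1 class II genes were called higher. Why the libraries stood apart was not tested.

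Complement genes passed in 4 of 19 tested members, all lower, where 1.2% of all tested genes were lower. Fcna, a ficolin that starts the lectin pathway, was at 13.9, 11.0 and 10.7 CPM in cHet and 5.04, 3.63 and 3.85 CPM in cKO (-1.50, adjusted p = 3.2e-05). Cd59a, an inhibitor of the membrane attack complex, differed by -1.78 and C4b, a complement component, by -1.68. Serping1, the C1 inhibitor, was at no more than 1.20 CPM in cHet and 0.138 CPM in cKO. In edgeR 0 of 25 cell cycle genes, 0 of 13 inflammasome genes and 0 of 20 glycolysis and hypoxia genes passed, with list medians of -0.23, 0.0084 and -0.028. At an unadjusted p under 0.05 these lists had 1, 2 and 4 genes, and 0 passed by DESeq2. Over all 13800 tested genes these numbers were 1687 and 345. Timd4, a receptor for dying cells, was the 1 of 21 scavenger and Fc receptor genes called, at 2.11, 0.986 and 1.47 CPM in cHet and 0.134, 0.0711 and 0.275 CPM in cKO. Cd5l, a secreted macrophage protein outside the fixed lists, was at 256, 227 and 225 CPM in cHet and 128, 129 and 119 CPM in cKO (-0.91, adjusted p = 2.1e-06). Vsig4, a complement receptor of tissue macrophages also outside those lists, differed by -3.06 (adjusted p = 0.000361). Cd5l and Vsig4, like all genes named outside the lists, were chosen after their values were seen.

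**Figure D3:**
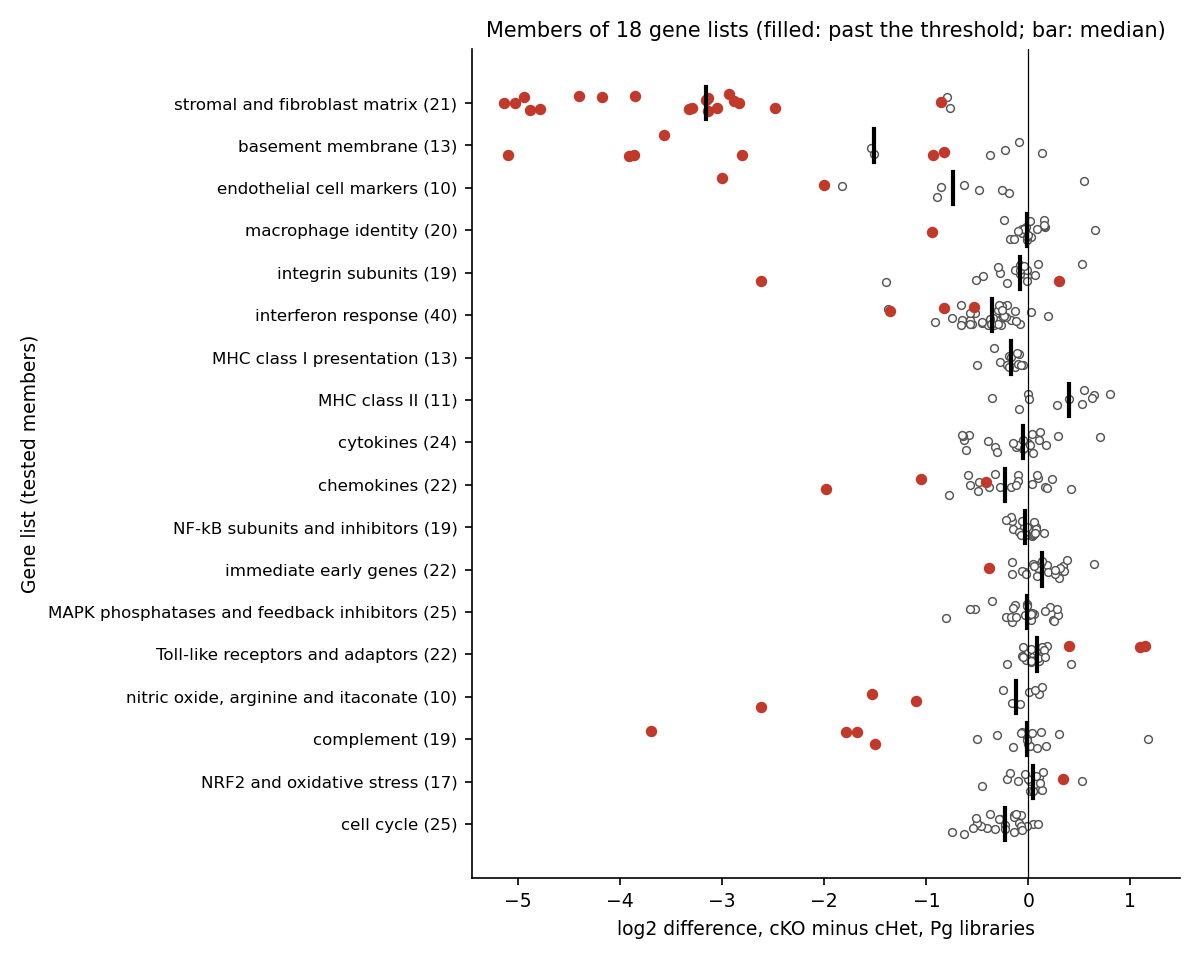
Log2 difference between cKO and cHet Pg libraries (horizontal axis) for each tested member of 18 gene lists (rows, number of members in brackets), with filled points past the threshold and a bar at the list median. The stromal list sits far to the left at a median of -3.16, interferon genes cluster just left of zero, and cytokine and NF-kB genes centre near zero with no filled points.

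Genes higher in cKO included a run at the distal end of the X chromosome. It was the only place where 5 or more of 20 neighbouring tested genes were called. The run held 12 called genes, from Gm15232 to Gm15247 (X:167088093-169986939), all higher in cKO. Gm15232, Gm15247 and G530011O06Rik were under 1 CPM in every cHet library and passed the low-count filter through the cKO libraries. The count thus leans to genes that were high in cKO. Over the whole X chromosome 14 of 422 tested genes were higher (3.32%) and 4 lower. Of all tested genes, 0.652% were higher and 1.2% lower, so only the rises on X exceeded the share over all genes. Tlr7, the endosomal receptor for single-stranded RNA, was at 292, 315 and 286 CPM in cHet and 640, 697 and 633 CPM in cKO, a log2 difference of 1.14 (standard error 0.08, adjusted p = 2.6e-07). Its neighbour Tlr8, another endosomal RNA receptor, was at 125, 129 and 130 CPM in cHet and 269, 289 and 260 CPM in cKO (1.09, adjusted p = 2.63e-07). Tmsb4x, which encodes the actin-binding peptide thymosin beta-4, was at 2350, 2435 and 2463 CPM in cHet and 4506, 4439 and 4755 CPM in cKO (0.92, adjusted p = 4.02e-08). Prps2, an enzyme of nucleotide synthesis, differed by 0.85, Msl3, a chromatin protein, by 0.94, and Hccs, which attaches haem to cytochrome c, by 1.06. Arhgap6 differed by 0.56 (adjusted p = 0.0192) and lost its call without cHet Pg 1 (0.0768), cHet Pg 2 (0.0744), cKO Pg 1 (0.0849) or cKO Pg 2 (0.129).

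Mid1 and the genes over it, near the end of the chromosome, had larger differences. Mid1, a microtubule-associated ubiquitin ligase, was at 1.69, 0.986 and 1.88 CPM in cHet and 51.4, 51.1 and 51.0 CPM in cKO (5.07, adjusted p = 5.24e-08). The noncoding genes G530011O06Rik, Gm15726 and Gm15247 lie within its span, so their reads may be shared with it, and strand use in the counting is not given in the sources used here. Their log2 differences were 6.68, 4.18 and 8.30, respectively. Gm15232, at the start of the run, was at 0 in all 3 cHet Pg libraries and at 0.605, 0.356 and 0.826 CPM in cKO. Gm21887, the last tested gene on the chromosome, differed by 1.88 without passing (adjusted p = 0.0855). The 6 tested genes just before the run were not called, at log2 differences from -0.33 to 1.36. On the Y chromosome Mid1-ps1, a pseudogene copy of Mid1, and Gm47283 were higher (3.85 and 2.94), and both are uncertain because near-identical copies exist on the X and Y. The control libraries had the same pattern, with Tlr7 at 1.02 and Mid1 at 3.16. Counts of RNA do not tell a difference in the number of copies of this stretch between the mice from a difference in expression of its genes, and neither can be assigned to the Itga9 allele; this was not tested. Among 22 tested members of the Toll-like receptor list, 3 were called, all higher, where 0.652% of all tested genes were higher. Beside Tlr7 and Tlr8, the third was Tlr9, an endosomal DNA receptor on another chromosome (0.40, adjusted p = 0.0316). Tlr9 lost its call without cHet Pg 1 (0.116), cHet Pg 3 (0.0535), cKO Pg 1 (0.103) or cKO Pg 2 (0.152).

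**Figure D4:**
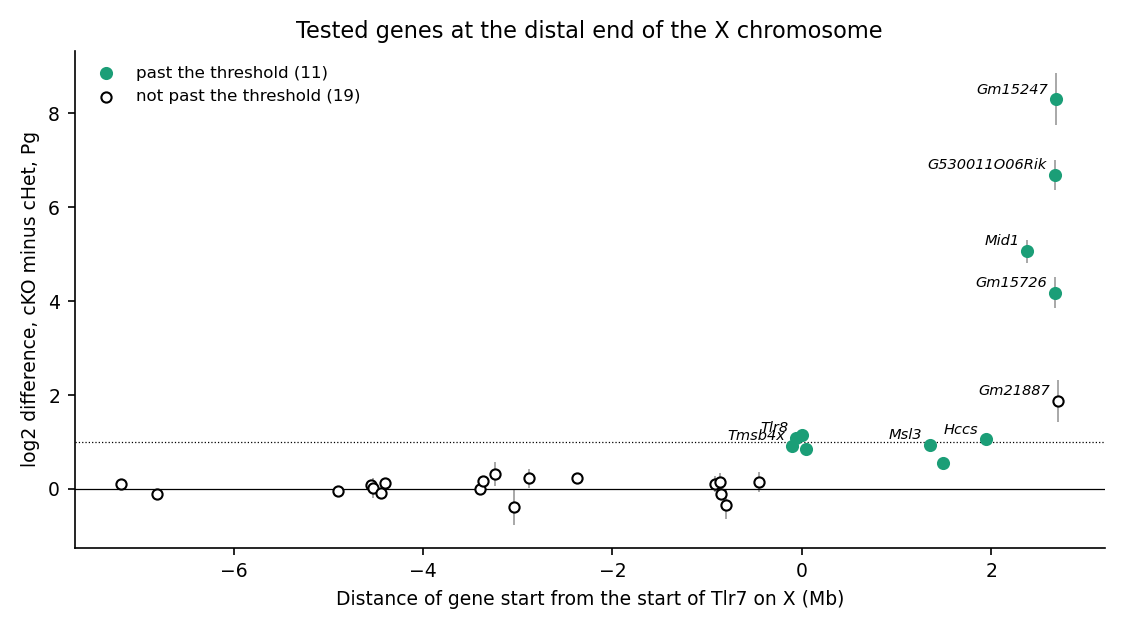
Log2 difference between cKO and cHet Pg libraries (vertical axis, with bars of 1 standard error) for tested genes with a mean level of at least 1 log2 CPM at the distal end of the X chromosome, against the distance of each gene's start from that of Tlr7 in Mb (horizontal axis, the dotted line marks a log2 difference of 1). Genes before the run scatter around zero, those from Tmsb4x to Hccs lie near 1 with Arhgap6 lowest at 0.56, and Mid1 with its overlapping genes lies from 4.18 to 8.30.

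Away from these groups, single genes stood out. Gm42031, a long intergenic RNA (8:85125872-85132289), was at 40.4, 54.6 and 55.7 CPM in cHet and 0.134, 0.0711 and 0.344 CPM in cKO, and its log2 difference of -8.03 (adjusted p = 1.89e-11) was the largest fall among genes with a mean of at least 1 log2 CPM. Fat1, an atypical cadherin, differed by -4.13, Camk2b, a calcium-dependent kinase, by -1.43, and Dynlt1b, a dynein light chain, by -1.14. Among rises, Lrmda went from 1.34, 0.704 and 0.804 CPM to 8.74, 7.04 and 8.26 CPM, and Gdf3, a growth factor of the TGF-beta family, from 2.88, 4.58 and 4.62 CPM to 15.3, 19.4 and 11.9 CPM. Tmem176a and its neighbour Tmem176b, which encode ion channels of endolysosomal membranes, rose together, by 0.94 and 1.05. Vmp1, an autophagy protein, was at 251 to 261 CPM in cHet and 359 to 374 CPM in cKO (0.51, adjusted p = 2.08e-05).

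Without Pg, the cKO and cHet libraries differed at 711 genes (5.15% of tested genes). The 2 contrasts compare different libraries, but both came from 1 fit over all 12 libraries. They share its filter and its estimate of the spread, so the 2 sets of calls are not independent. Of the 90 genes higher under Pg, 48 were also higher in controls, and of the 165 lower under Pg, 97 were also lower in controls, where 2.13% of tested genes were higher and 3.02% lower. Another 6 were called in both conditions in opposite directions. The remaining 104 were not called in controls, of which 17 passed the test of the difference between conditions (passed by 0.717% of tested genes). Over all tested genes, the Pearson correlation of the 2 sets of log2 differences was 0.58, a description across genes, which are not independent replicates.

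**Figure D5:**
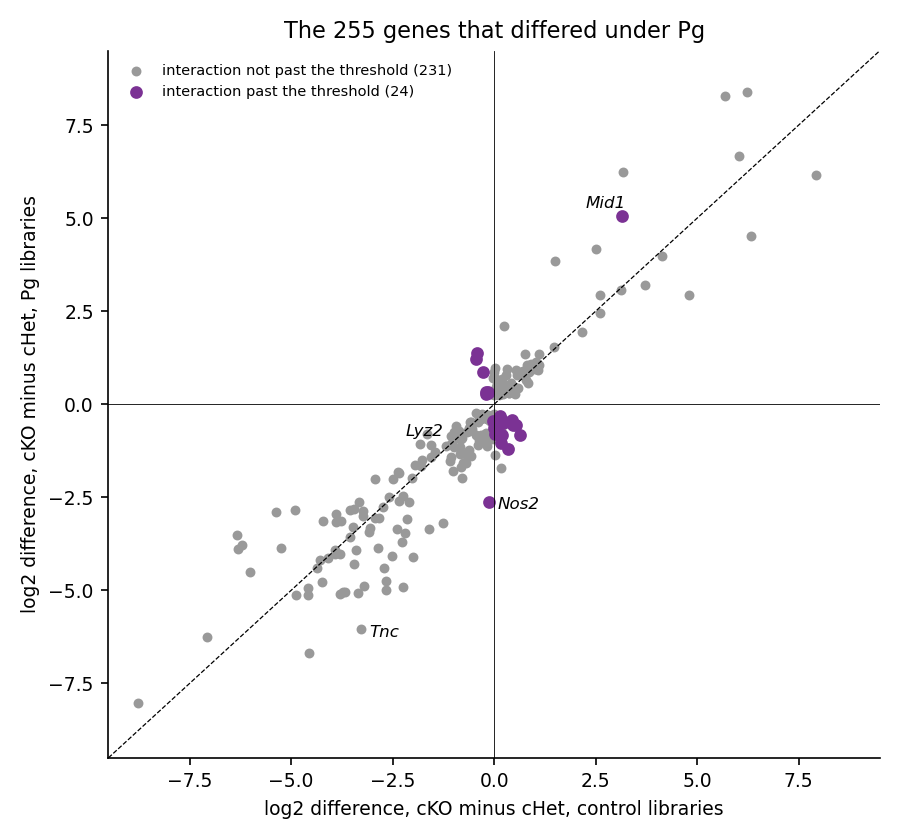
Log2 difference between cKO and cHet in the Pg libraries (vertical axis) against the same difference in the control libraries (horizontal axis) for the 255 genes that differed under Pg, as fitted values, with a dashed line where the 2 are equal. Most points follow the dashed line. The 24 genes whose interaction passed range from close to it, such as Acaa2 (interaction 0.43), to farther off, such as Nos2 (-2.50) and Mid1 (1.91). Some genes whose interaction did not pass, such as Gm15232 (3.06), lie farther off than these.

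The interaction test asks whether the genotype difference under Pg differs from the one in controls, and 99 genes passed it, 63 with a positive interaction (0.457% of tested genes) and 36 with a negative one (0.261%). Of these, 24 were also called under Pg, 16 lower and 8 higher in cKO. Dtx3l, a ubiquitin ligase of the DNA damage and interferon responses, was at 122, 110 and 110 CPM in cHet Pg and 62.1, 64.2 and 71.8 CPM in cKO Pg (-0.79, adjusted p = 1.48e-05). In controls it was at 150 to 161 CPM in cHet and 144 to 181 CPM in cKO, and the interaction was -0.82 (adjusted p = 0.00367). Parp14, an ADP-ribosyltransferase beside Dtx3l on chromosome 16, was at 423, 460 and 443 CPM in cHet Pg and 317, 327 and 349 CPM in cKO Pg, while its control difference was positive, at 0.43. The interaction of Parp14 was -0.85 (adjusted p = 0.00338), and its Pg call was lost without cHet Pg 2 (0.0587), cKO Pg 1 (0.0557) or cKO Pg 2 (0.0601). Rnf31, a component of the linear ubiquitin ligase complex, was at 61.8, 52.7 and 54.5 CPM in cHet Pg and 37.3, 36.1 and 45.1 CPM in cKO Pg (interaction -0.73, adjusted p = 0.0095). Tent5a, a poly(A) polymerase, and Irgm2 turned sign between conditions, from 0.46 and 0.64 in controls to -0.55 and -0.82 under Pg.

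Col18a1, a collagen gene whose product is cut to endostatin, differed with Pg and not without. It was at 37.2, 29.5 and 33.0 CPM in cHet and 17.2, 19.3 and 19.7 CPM in cKO with Pg, and 20.2 to 21.8 CPM against 19.6 to 29.0 CPM without (interaction -1.03, adjusted p = 0.0107). Flcn, folliculin, a regulator of nutrient signalling at lysosomes, moved the other way, at 111, 117 and 118 CPM in cHet Pg and 149, 145 and 139 CPM in cKO Pg (interaction 0.53, adjusted p = 0.0056). Cd38, an NAD-consuming surface enzyme, was lower in cKO under Pg (-0.76) with an interaction of -0.84 (adjusted p = 0.0285), and the interaction call ended when any 1 of 7 libraries was left out (0.0548 to 0.0943: cHet Pg 1 and 2, cKO Pg 1 and 2, cHet controls 2 and 3, cKO control 3). Il1b passed the interaction as well (0.61, adjusted p = 0.0213), with a difference of -0.57 in controls and 0.04 with Pg, and lost that call without any 1 of 5 libraries (0.0548 to 0.0781: cHet Pg 3, cKO Pg 2, cHet controls 2 and 3, cKO control 3).

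Transcripts known to collect reads of ribosomal RNA moved with the genotype under Pg. Gm23935, CT010467.1 and Lars2 together took 0.0681% to 0.113% of counts in the cHet Pg libraries and 0.0386% to 0.0416% in the cKO Pg libraries, against 0.0384% to 0.0563% in controls. Gm23935 was at 450, 357 and 302 CPM in cHet Pg and 142, 157 and 181 CPM in cKO Pg (-1.21, adjusted p = 0.00164). Lars2, a mitochondrial leucyl-tRNA synthetase, was at 95.8, 85.3 and 65.1 CPM and at 32.9, 40.8 and 45.5 CPM (-1.05, adjusted p = 0.00164). CT010467.1 lost its call without cHet Pg 2 (0.0688), cKO Pg 1 (0.087), cKO Pg 2 (0.0728) or cKO Pg 3 (0.0874). The part that this share of counts had in the other Pg differences was not tested.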

How the data were processed

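Polyadenylated RNA was measured by RNA-seq with fragments of 370 to 420 bp. The submitters' processing notes name the build mm10 and the tools featureCounts 1.5.0-p3, HISAT2 2.0.5 and fastp. No source used here gives the annotation release, the strand setting or the treatment of reads fitting several genes. The authors deposited 1 table of raw counts per gene for all 12 libraries, with no normalization, and the deposited table also gives each gene's other details such as length and position, which were used as given.

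Counts were tested with edgeR 4.0.16 in R 4.3.3 (TMM scaling, filterByExpr, robust quasi-likelihood F test, a mean for each of 4 groups over 12 libraries, Benjamini-Hochberg adjustment over 13800 genes, threshold 0.05). The same fit gave the control contrast and the interaction. A standard error is the log2 difference over the square root of F. CPM uses TMM-scaled library sizes. The code was checked on simulated counts. Alternatives were RLE scaling, DESeq2 1.42.0, no filter, at least 50 counts in 3 libraries, a replicate block, the 6 Pg libraries alone and each library left out. Library size scaling and leaving out both libraries that stood apart were chosen after seeing the data.

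Named genes were Itga9, Lyz2, Lyz1, the 15 largest rises and falls past the threshold with no overlap and a mean of at least 1 log2 CPM, the 10 smallest p, up to 4 called members per list (filled to 2 with the most abundant), 8 interaction genes also called under Pg, and called genes of any window of 20 tested genes with 5 or more calls; others were chosen after their values were seen. The comparison, lists and tests were chosen with earlier results of these data known. Replicate numbers did not line up between genotypes in the Pg libraries: deviations from the group means correlated at -0.41, 0.14 and -0.29 for numbers 1 to 3. The unlike pair cHet Pg 1 with cKO Pg 3 correlated at 0.48. In controls the same correlations were 0.55, 0.14 and 0.13, all above 0.1, but unlike numbers correlated at up to 0.31 (cHet 2 with cKO 3 and cHet 3 with cKO 2). Deviations within a group of 3 libraries depend on each other, so these values cannot decide whether any numbers were paired.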

Additional observations from a re-analysis of the deposited data

Results flagged for a closer look

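Of the 99 genes that passed the interaction test (adjusted p below 0.05), the 24 also called under Pg and Il1b are given here, 25 in all, and each interaction is given as a log2 value, Pg minus control. In 15 of them the call stood when any single library was left out: AW112010 (-1.09), Col18a1 (-1.03), Dtx3l (-0.82), Flcn (0.53), Gm11249 (1.67), Gm23935 (-1.55), Gm5805 (1.80), Irgm2 (-1.47), Myo10 (-0.85), Parp14 (-0.85), Pcf11 (0.48), Rnf31 (-0.73), Rps2-ps10 (1.15), Tent5a (-1.01) and Vps18 (0.48). Gm5805 had an adjusted p of 0.0685 when cHet Pg 1 and cKO Pg 3 were both left out. Gm5805, Gm11249 and Rps2-ps10 are annotated as pseudogenes, whose reads may be shared with their parent genes.

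The interaction of Nos2 (-2.50) had an adjusted p of 0.0523 without cKO Pg 2. For the other 9, several single libraries each ended the call. They were 2510009E07Rik (-0.44, 6 libraries, adjusted p 0.0509 to 0.0786), Acaa2 (0.43, 11 libraries, 0.0744 to 0.151), Cd38 (-0.84, 7 libraries, 0.0548 to 0.0943), Foxp4 (-0.58, 6 libraries, 0.0648 to 0.0845) and Il1b (0.61, 5 libraries, 0.0548 to 0.0781). The same held for Lars2 (-1.21, 5 libraries, 0.0508 to 0.0694), Mid1 (1.91, 8 libraries, 0.0518 to 0.136), Src (-0.63, 8 libraries, 0.0687 to 0.107) and Znfx1 (-0.47, 9 libraries, 0.0765 to 0.153). With the replicate block the interactions of Src (adjusted p 0.0591), Lars2 (0.0613) and Acaa2 (0.0858) did not pass. The cKO Pg 2 and cHet control 3 libraries were among those that ended the call for each of these 9 genes. Under Pg itself, AW112010 (-0.56), Znfx1 (-0.32), Foxp4 (-0.40), Myo10 (-0.47), Acaa2 and Vps18 also lost their calls without single Pg libraries: 5 for AW112010 (0.065 to 0.19), 6 for Znfx1 (0.0594 to 0.152), 3 for Foxp4 (0.0536 to 0.0677), 2 for Myo10 (0.0575 and 0.081), and likewise 5 for Acaa2 (0.29, adjusted p 0.0744 to 0.142) and 4 for Vps18 (0.28, adjusted p 0.0609 to 0.102).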

How the results depend on the processing

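Of 99 named called genes other than Itga9 and Lyz2, 71 kept direction and call under every alternative that tested them, 28 lost the call at least once and 0 reversed. A gene that an alternative's filter removed was not counted as a loss. Gm15232, for example, could not be tested with at least 50 counts in 3 libraries. The number of genes differing under Pg was 507 with no filter on low counts, of which 250 were among the 255. With single libraries left out the number was 153 to 259. The 259 without cKO Pg 3 held 190 of the 255, the 229 without cHet Pg 1 held 187, and the 153 without cKO Pg 2 held 151. With the replicate block the number was 220, of which 208 were among the 255. Controls gave 1101 genes without the filter, 319 to 591 with single libraries left out (fewest without cKO control 3) and 549 with the block. The interaction count of 99 was 259 by DESeq2, 389 without the filter, 197 with cHet Pg 1 and cKO Pg 3 both left out and 70 with the block, and ran from 42 (without cHet control 3 or cKO control 3) to 207 (without cKO Pg 3). The cause of these moves was not tested. Itga9 passed by DESeq2 (-1.39, adjusted p 0.0125) and not by edgeR, and Lyz2 kept its call throughout. Some values that never passed changed sign when a library was left out: Tnf ran from -0.23 to 0.14, Il1b from -0.025 to 0.091 (-0.055 with cHet Pg 1 and cKO Pg 3 both left out), Itgb1 from -0.043 to 0.031 and Itgax from -0.57 to 0.031. Under the replicate block 6 named genes lost the call under Pg: Arg1, Emcn, Parva, Timp3, Tlr9 and Acaa2 (adjusted p 0.0511 to 0.0791). With 3 libraries a group and at least 15361576 counts in each Pg library, a gene below 1 CPM rests on few reads.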
